A study of Saccharomyces cerevisiae with 25 samples.

Results

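The genes described here are the 9 that encode IMP dehydrogenases and the enzymes that interconvert purine nucleotides and bases in budding yeast: IMD2, IMD3, IMD4, GUA1, ADE12, ADE13, AAH1, APT1 and HPT1. They were taken by name from the 6650 named genes of the deposited matrix, and all 9 were found. RNA was sequenced from wild-type BY4741, a haploid laboratory strain, in 24 libraries taken every 15 min from 15 to 360 min after cells from an overnight culture in high phosphate were washed and placed in medium lacking phosphate and in 1 library from high-phosphate medium at 0 min. HIS3, LEU2, MET17 and URA3, which BY4741 lacks, had no value in any of the 25 libraries. STE2, the alpha-factor receptor of mating type a, had a value in all 25, and STE3, the receptor made by the other mating type, in 24. On the log2 scale described below, STE2 lay between 8.69 and 9.22 and STE3 between 4.24 and 6.01.

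IMP is the branch point of purine nucleotide synthesis. In one direction IMP dehydrogenase, encoded in yeast by the IMD genes, and GMP synthase, encoded by GUA1, lead to GMP and GTP; in the other, adenylosuccinate synthase, encoded by ADE12, and adenylosuccinate lyase, encoded by ADE13, lead to AMP and ATP. Salvage enzymes return free bases to the pool: Apt1 joins adenine to a phosphoribosyl group, Hpt1 does the same for hypoxanthine and guanine, and Aah1 turns adenine into hypoxanthine. In yeast AAH1 is known as a gene shut down when cells stop growing, and IMD2 as the IMP dehydrogenase gene that responds to guanine nucleotide supply.

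The 3 IMD genes are close copies, which bears on every value given for them. In genome build R64 (RefSeq annotation) IMD2 lies on chromosome VIII from 554396 to 555967, IMD3 on chromosome XII from 1002557 to 1004128 and IMD4 on the minus strand of chromosome XIII from 162194 to 164176, where its intron holds the small nucleolar RNA gene SNR54. Their coding sequences are identical at 88.9% of aligned bases for IMD2 and IMD3, 82.1% for IMD3 and IMD4 and 79.2% for IMD2 and IMD4. The longest stretch that IMD3 and IMD4 share without a difference is 139 bases, shown here with IMD2 beside it on the coding strand. Capitals mark the 21 bases at which IMD2 differs from IMD3. The stretches lie at chr8:555249-555387, chr12:1003410-1003548 and chr13:162774-162912.
IMD2: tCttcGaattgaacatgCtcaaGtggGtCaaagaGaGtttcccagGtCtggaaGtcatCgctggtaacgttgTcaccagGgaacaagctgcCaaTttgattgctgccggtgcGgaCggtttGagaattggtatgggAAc
IMD3: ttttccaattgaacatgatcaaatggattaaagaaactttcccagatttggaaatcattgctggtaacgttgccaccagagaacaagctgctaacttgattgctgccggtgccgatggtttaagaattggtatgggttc
IMD4: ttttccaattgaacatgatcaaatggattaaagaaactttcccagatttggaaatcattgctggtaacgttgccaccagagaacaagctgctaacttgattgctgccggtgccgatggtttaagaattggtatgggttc

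IMD2 and IMD3 share a run of 94 bases, at which IMD4 differs in 10 places, again in capitals. It lies at chr8:555483-555576, chr12:1003644-1003737 and chr13:162585-162678.
IMD2: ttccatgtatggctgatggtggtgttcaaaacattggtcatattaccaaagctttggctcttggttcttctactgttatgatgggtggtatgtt
IMD3: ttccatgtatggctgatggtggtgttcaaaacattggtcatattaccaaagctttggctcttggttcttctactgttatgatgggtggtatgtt
IMD4: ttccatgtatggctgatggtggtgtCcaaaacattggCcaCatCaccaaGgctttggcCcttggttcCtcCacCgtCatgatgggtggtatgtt

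A read that falls inside such a stretch cannot be placed on 1 gene. Of all windows of 50 bases along the coding sequence, 33.7% in IMD2, 16.6% in IMD3 and 7.01% in IMD4 occur elsewhere in the genome, most of those of IMD2 on chromosome I between 227854 and 229274. IMD1, the copy of IMD2 known from chromosome I, had no value in any library. Taken back to reads, the values of the other 6 genes were whole numbers in all 25 libraries, within 0.01 of a read, whereas IMD3 was not whole in 25 of 25, IMD2 in 23 of 24 and IMD4 in 14 of 25. Among the 3109 genes with a value in every library, 4.99% were not whole in at least 23 of the 25. The sources used here do not give the authors' handling of such reads. The split among IMD2, IMD3 and IMD4 is therefore uncertain, and its part in their differences was not tested.

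Levels are given as log2 RPM, the logarithm of reads scaled to 1000000 per library. The libraries held 209394 to 1737019 reads as recovered from the values, and the shallowest, at 120 min, listed 3261 genes against 4325 to 5392 in the other 24. Libraries at 4 neighbouring times were taken as a window, since each time had 1 library, so all errors and p-values measure the spread between serial samples of 1 course and not between separate cultures. The values are shares of each library's RNA: fewer cells that express a gene and less of its RNA per cell cannot be told apart, and neither can a change in total RNA. Set against high phosphate, the median gene with a value in every library was higher by 0.26 to 0.44 log2 units in the samples of 120 to 360 min, and by 0.02 to 0.08 in those of 15 to 105 min.

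**Figure D1:**
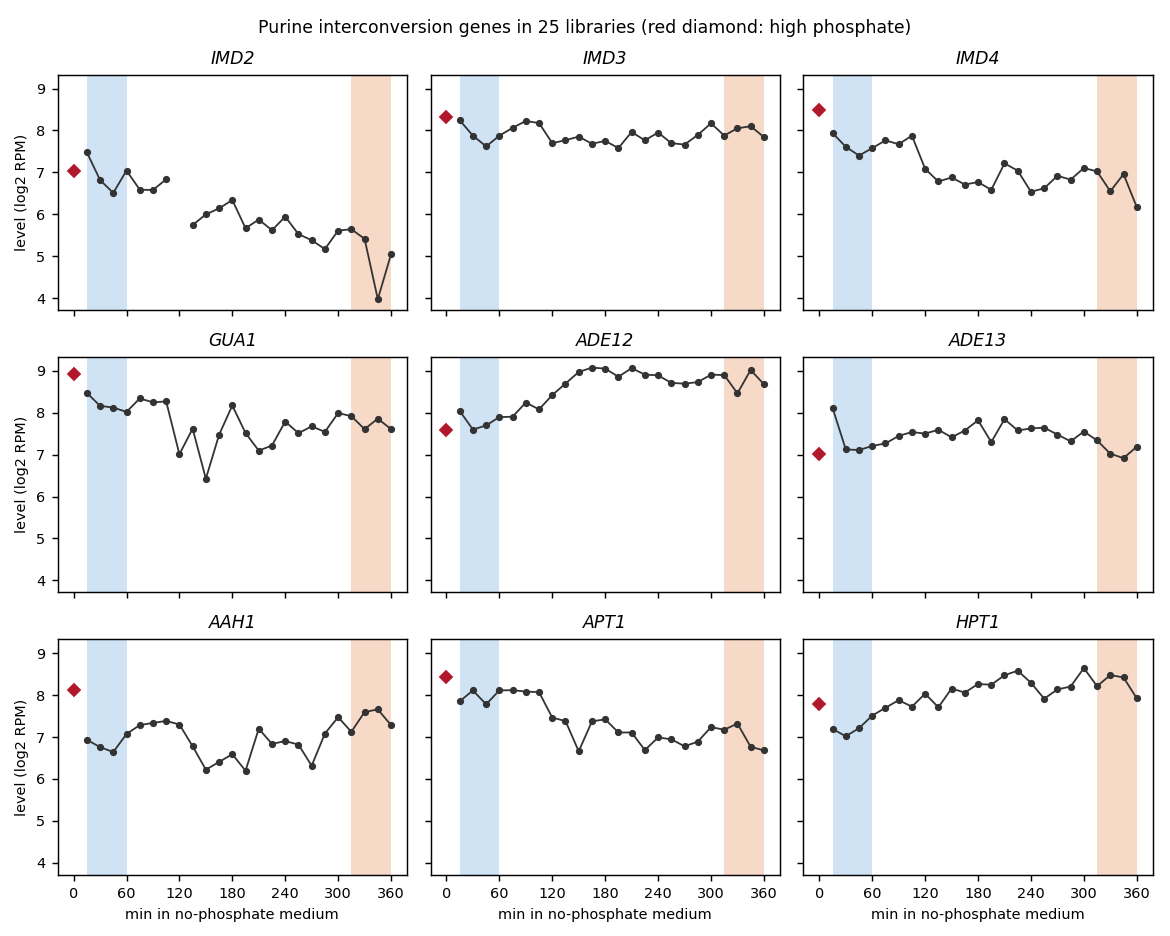
Level (log2 RPM) of each of the 9 genes against time in no-phosphate medium, 1 point per library, with the single high-phosphate library as a red diamond at 0 min. The blue and orange bands mark the windows of 15 to 60 and 315 to 360 min; IMD2 has no value at 120 min. IMD2, IMD4 and APT1 end low, ADE12 and HPT1 end high, and IMD3 stays between 7.58 and 8.24 after transfer.

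The late window, 315 to 360 min, was compared with the early one, 15 to 60 min, to ask which steps of the network differed between late and early samples. The only high-phosphate library is that of 0 min. Length of phosphate deprivation can therefore not be told apart from time in culture or time since the wash and transfer. IMD2, IMD4 and APT1 fell and ADE12, HPT1 and AAH1 rose, while IMD3, GUA1 and ADE13 did not pass the test. The 3 genes that rose and the 3 that fell were read against a background of 37.8% of 4535 tested genes higher and 10.0% lower, so the share of rises was near the background and that of falls, 3 of 9, was above it. The median change was -0.27 over the 9 genes and 0.33 over all genes tested. The test was limma with Benjamini-Hochberg adjustment over all genes tested, two-sided at 0.05. With each library centred on its median gene, ADE12 and HPT1 remained higher and IMD2, IMD4 and APT1 lower, ADE13 was lower as well, and AAH1 no longer passed. On that scale the split over all genes was 873 higher and 973 lower, against 1713 and 454 on the deposited scale.

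**Figure D2:**
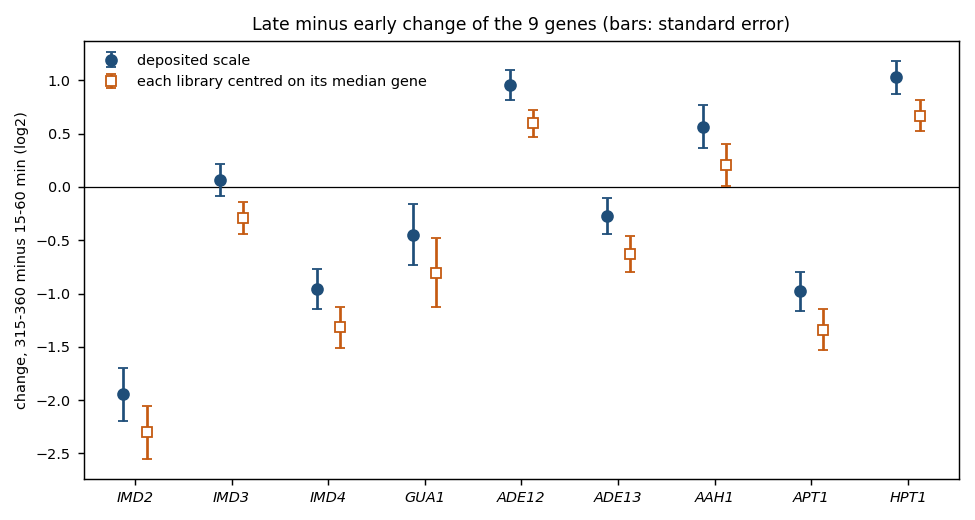
Change of each gene between 315 to 360 and 15 to 60 min (log2 units, later minus earlier) with its standard error, on the deposited scale (filled) and with every library centred on its median gene (open). IMD2 lies lowest at -1.94 and HPT1 highest at 1.03; centring moves each gene down and takes IMD3 from 0.06 to -0.29.

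The largest change of the 9 was that of IMD2. Its level was 5.64, 5.41, 3.97 and 5.04 log2 RPM at 315, 330, 345 and 360 min, against 7.48, 6.82, 6.51 and 7.04 at 15, 30, 45 and 60 min. All 4 late libraries lay below all 4 early ones, and the late ones were spread widely around the low value at 345 min. The change was -1.94 (SE 0.25, limma adjusted p = 7.96e-08), or 0.26 times the early level. The late values rest on about 31, 23, 24 and 17 reads. The 345 min library, with 1496492 reads the deepest of that window, held the lowest value, and the next window back showed the same pairing, with 5.17 in its deepest library at 285 min and 5.61 in its shallowest at 300 min. The earlier windows did not: their deepest libraries, at 15, 75, 165 and 210 min, had 7.48, 6.59, 6.14 and 5.87. The lowest listed values of those windows were 6.51, 6.58, 5.74 and 5.62. The part of depth in the spread of IMD2 was not tested, and without the 345 min library its change was -1.60.

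Between these windows IMD2 went down in steps, none of which passed the test on its own. Its mean was 6.96 ± 0.41 at 15 to 60 min, 6.67 ± 0.15 at 75 to 120 min, 6.05 ± 0.25 at 135 to 180 min, 5.77 ± 0.16 at 195 to 240 min, 5.42 ± 0.19 at 255 to 300 min and 5.02 ± 0.74 at 315 to 360 min (SD, n = 4 libraries, 3 in the second window). Each mean of the listed samples lay below the one before it. At 120 min IMD2 had no value, which at that depth places it under 5.58, so the mean of 75 to 120 min leaves out its lowest sample. All samples from 195 min on lay below 5.99, the midpoint of the early and the late mean.

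IMD3 was the most abundant of the 3 copies after transfer. It stood at 7.88, 8.05, 8.10 and 7.84 log2 RPM at 315 to 360 min, against 8.24, 7.88, 7.62 and 7.88 at 15 to 60 min. The windows overlapped, and the change of 0.06 (SE 0.15) did not pass (limma adjusted p = 0.736). IMD3 was also the 1 gene of the 9 that did not pass the limma F test of a smooth course in time (natural spline, 4 degrees of freedom, adjusted p = 0.342), which 58.8% of all genes passed. After centring on the median gene IMD3 passed it too (adjusted p = 0.00196). Over the 24 no-phosphate libraries its lowest, median and highest values were 7.58, 7.88 and 8.24.

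IMD4 followed neither of the other copies. It stood at 7.02, 6.55, 6.96 and 6.17 log2 RPM at 315 to 360 min, against 7.94, 7.61, 7.40 and 7.58 at 15 to 60 min. The windows did not overlap, with a change of -0.96 (SE 0.19, limma adjusted p = 8.59e-05). Most of that difference was present by 135 to 180 min, where it stood at 6.78 ± 0.07, against 7.60 ± 0.35 at 75 to 120 min (SD, n = 4). The step was -0.81 with an SE of 0.19 (limma adjusted p = 0.00144). From then on its window means stayed between 6.67 and 6.87. Reads from the 139-base run that IMD4 shares with IMD3 could count toward either gene.

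The changes of the 3 copies were set against each other as log2 ratios within each library, which do not depend on how a library is scaled. Over 6 gene pairs tested in all, each reached the smallest p that 4 libraries against 4 allow, 0.0286 in a two-sided exact permutation test, and 0.0286 after adjustment. For APT1 with HPT1 and AAH1 with APT1, described below, that p followed from the single genes, whose windows lay apart in opposite directions. IMD2 relative to IMD3 was -2.95 ± 0.82 at 315 to 360 min, against -0.94 ± 0.17 at 15 to 60 min (SD, n = 4), a difference of -2.01 (SE 0.42). IMD2 relative to IMD4 was -1.66 ± 0.89 late, against -0.67 ± 0.21 early, a difference of -0.99 (SE 0.46) that was -0.54 without the 345 min library. IMD3 relative to IMD4 was 1.29 ± 0.37 late, against 0.27 ± 0.04 early, a difference of 1.02 (SE 0.18). These differences carry the uncertainty of how shared reads were divided.

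Summed over the copies, a value that does not depend on that division except for reads given to other loci, IMP dehydrogenase RNA reached 392 ± 38.4 RPM at 315 to 360 min, against 571 ± 113 RPM at 15 to 60 min (SD, n = 4 each). The high-phosphate library had 810 RPM. The sum lay between 457 and 727 RPM from 15 to 105 min and between 335 and 475 RPM from 135 min on, and of the later stretch the samples at 210 min, with 457 RPM, and at 300 min, with 475 RPM, reached the lowest of the earlier one. The copies have nearly the same coding length, 1572 bases for IMD2 and IMD3 and 1575 for IMD4, so their shares can be compared. IMD3 made up 64.4% ± 5.28 of the sum at 315 to 360 min, against 42.5% ± 0.757 at 15 to 60 min and 39.2% in high phosphate. IMD2 made up 9.07% ± 3.63 late, against 22.2% ± 2.22 early, and IMD4 26.5% ± 4.84 late, against 35.3% ± 1.51 early. No test was made on the sum or the shares.

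**Figure D3:**
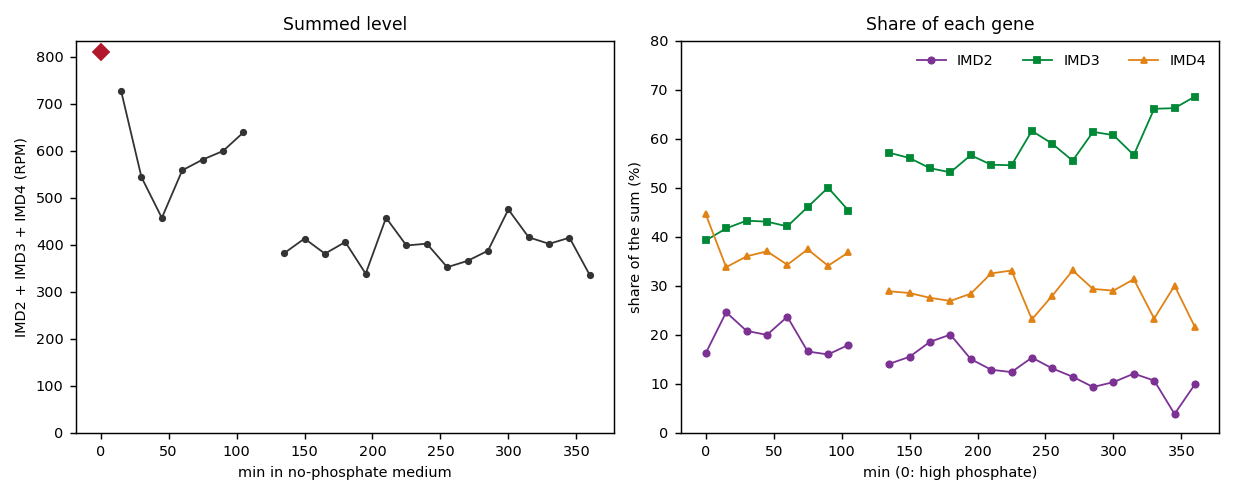
Left, the summed level of IMD2, IMD3 and IMD4 in RPM, with the high-phosphate library as a red diamond; right, the share of each gene in that sum in percent, at 0 min in high phosphate and then in no-phosphate medium. No sum is given at 120 min, where IMD2 had no value. IMD4 is the largest share at 0 min (44.6%), and IMD3 is the largest in all later libraries shown.

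GUA1, the next enzyme toward GMP, lies on chromosome XIII from 701790 to 703367. It stood at 7.92, 7.61, 7.86 and 7.61 log2 RPM at 315 to 360 min, against 8.48, 8.17, 8.13 and 8.02 at 15 to 60 min. The 4 late libraries all lay below the 4 early ones, as they did for 4 of the 9 genes and 10.3% of all genes tested, counted over listed samples (3 of the 9 and 38.1% lay wholly above), yet the change of -0.45 (SE 0.29) did not pass (limma adjusted p = 0.203). Its error is drawn from all windows, and GUA1 varied most in the middle of the course, with 7.62, 6.43, 7.48 and 8.18 at 135, 150, 165 and 180 min. Fitted on the early and late windows alone, the same change passed at an adjusted p of 0.00351, and with library weights at 0.0225. The low value at 150 min rests on 68 reads and that of 7.01 at 120 min on 27 reads.

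At the first step of the branch toward AMP, ADE12 rose. In the branch toward GMP, IMD2 and IMD4 fell, while IMD3 and GUA1 did not pass. ADE12 (chromosome XIV, 234413 to 235714) stood at 8.90, 8.47, 9.02 and 8.68 log2 RPM at 315 to 360 min, against 8.05, 7.60, 7.70 and 7.90 at 15 to 60 min. The windows did not overlap, and the rise was 0.96 (SE 0.14, limma adjusted p = 8.11e-07), or 1.94-fold. That level was present at 135 to 180 min, with 8.70, 8.98, 9.08 and 9.06, against 7.91, 8.25, 8.08 and 8.43 at 75 to 120 min, a change of 0.79 (SE 0.14, limma adjusted p = 6.30e-05). All samples from 120 min on lay above the midpoint of the early and late means, 8.29, though the one at 120 min, 8.43, rests on 72 reads.

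ADE13, which acts in the same branch and also earlier in the route to IMP, did not follow ADE12. It stood at 7.34, 7.02, 6.92 and 7.19 log2 RPM at 315 to 360 min, against 8.12, 7.13, 7.11 and 7.21 at 15 to 60 min, and the windows overlapped. Its change of -0.27 (SE 0.17) did not pass (limma adjusted p = 0.19), and without the high first sample it was -0.03. The ratio of ADE12 to ADE13 was 1.65 ± 0.31 on the log2 scale late, against 0.42 ± 0.34 early (SD, n = 4), a difference of 1.23 (SE 0.23, exact permutation p = 0.0286). ADE13 passed the test of a smooth course (limma F test adjusted p = 0.0304): its window means were 7.60 ± 0.17 at 135 to 180 min and 7.12 ± 0.19 at 315 to 360 min.

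The salvage enzymes differed among themselves. APT1 (chromosome XIII, 228937 to 229500) stood at 7.18, 7.32, 6.77 and 6.68 log2 RPM at 315 to 360 min, against 7.85, 8.11, 7.78 and 8.12 at 15 to 60 min. The windows did not overlap, and the change was -0.98 (SE 0.18, limma adjusted p = 3.10e-05). It had fallen by 135 to 180 min, at 7.21 ± 0.37 against 7.94 ± 0.31 at 75 to 120 min (SD, n = 4). The step was -0.73 with an SE of 0.18 (limma adjusted p = 0.0027). All samples from 135 min on lay below the midpoint of the early and late means, 7.48, and the 120 min sample, at 7.47 on 37 reads, could not be told from it.

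HPT1 (chromosome IV, 1270068 to 1270733) stood at 8.21, 8.48, 8.42 and 7.92 log2 RPM at 315 to 360 min, against 7.19, 7.02, 7.21 and 7.51 at 15 to 60 min. The windows did not overlap, and the rise was 1.03 (SE 0.16, limma adjusted p = 1.75e-06), or 2.04-fold. No single step between neighbouring windows passed. The window means were 7.23 ± 0.21, 7.84 ± 0.16, 8.05 ± 0.24, 8.40 ± 0.16, 8.23 ± 0.31 and 8.26 ± 0.25 from the first window to the last (SD, n = 4), so the largest step was the first one. The ratio of APT1 to HPT1 was -1.27 ± 0.27 on the log2 scale late, against 0.73 ± 0.24 early, a difference of -2.01 (SE 0.18, exact permutation p = 0.0286). With the windows of both genes apart in opposite directions, that p was fixed and is no separate result. Per kilobase of coding sequence HPT1 had 466 ± 77.6 RPM late, against 228 ± 33.4 early, and APT1 had 229 ± 49.0 late, against 446 ± 53.2 early, which reversed the order of the genes' levels.

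AAH1 (chromosome XIV, 359596 to 360639) had a course with several turns. It stood at 6.94, 6.76, 6.64 and 7.07 log2 RPM from 15 to 60 min, against 8.12 in high phosphate. At 75 to 120 min it had 7.29, 7.34, 7.39 and 7.30, a step of 0.47 (SE 0.20) that did not pass (limma adjusted p = 0.412). At 135 to 180 min it fell to 6.78, 6.22, 6.41 and 6.59, without overlap with the window before, a change of -0.83 (SE 0.20, limma adjusted p = 0.00218). By 315 to 360 min it stood at 7.13, 7.60, 7.66 and 7.29, above all 4 of the earliest samples, a rise of 0.56 over 15 to 60 min (SE 0.20, limma adjusted p = 0.02). That rise is the least stable of the 6 calls: it did not pass without the 45 min library (0.49, adjusted p = 0.0663), without that of 330 min (0.50, adjusted p = 0.0607) or without that of 345 min (0.48, adjusted p = 0.0725), or after centring (0.21, adjusted p = 0.429). The ratio of AAH1 to APT1 was 0.43 ± 0.41 late, against -1.11 ± 0.18 early (SD, n = 4), a difference of 1.54 (SE 0.22, exact permutation p = 0.0286). That p too was fixed by the windows of the 2 genes, which lay apart in opposite directions.

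Taken step by step, the window of 135 to 180 min against that of 75 to 120 min was the 1 step between neighbours in which any of the 9 genes passed. ADE12 rose and IMD4, AAH1 and APT1 fell, against a background of 19.8% of 4535 genes higher and 6.77% lower in that step. IMD2 changed by -0.61 (SE 0.27, limma adjusted p = 0.0882) over its listed samples. The unlisted 120 min sample, under 5.58, lay below all 4 samples of 135 to 180 min, so the windows overlapped and the size of that step is overstated. Centred on the median gene, IMD2 and IMD3 also passed as lower, with changes of -0.89 and -0.49. The split over all genes in that step was then 369 higher and 526 lower, against 898 and 307 on the deposited scale. Without the shallow 120 min library GUA1 (-0.86, adjusted p = 0.0117) and IMD3 (-0.39, adjusted p = 0.0272) passed too, and 1665 genes were called in place of 1205. GUA1 also passed without the 180 min library (-0.79, adjusted p = 0.035), and with library weights 8 of the 9 passed, all but ADE13. In the other 4 steps limma called 0 of the 9, against 0.706%, 0.882%, 0.154% and 0.0882% of all genes. Unadjusted limma p-values under 0.05 numbered 3, 1, 0 and 2 of the 9, against 464, 627, 418 and 286 of 4535 genes.

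Against the high-phosphate library, the question was how far each gene stood from its level before transfer. This baseline is 1 library, so there is no test, and a gene was counted when a window mean lay at least 2-fold away with every sample of the window on that side. AAH1 was the 1 gene counted at 15 to 60 min, at -1.26 ± 0.19 (SD, n = 4), where 0.577% of genes were counted as lower and 2.45% as higher. At 75 to 120 min none of the 9 was counted, where 0.387% of genes were lower and 3.72% higher. At 135 to 180 min IMD4, GUA1, AAH1 and APT1 were counted as lower and ADE12 as higher, against 6.46% and 14.4% of genes. At 195 to 240 min IMD2 was counted as lower with them, when 5.78% of genes were lower and 18.6% higher. The same 6 genes were counted at 255 to 300 min, against 6.05% and 19.0%. At 315 to 360 min the window means were -2.02 ± 0.74 for IMD2, -1.82 ± 0.40 for IMD4, -1.46 ± 0.31 for APT1, -1.17 ± 0.16 for GUA1 and 1.18 ± 0.25 for ADE12 (SD, n = 4), while AAH1 at -0.70 ± 0.25 was no longer counted. At that time 5.93% of genes were lower and 21.8% higher. Centred on the median gene, ADE12 was counted at 135 to 180 min alone, while AAH1 at 315 to 360 min, IMD2 at 135 to 180 min and IMD4 and GUA1 at 75 to 120 min were counted as lower too.

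**Figure D4:**
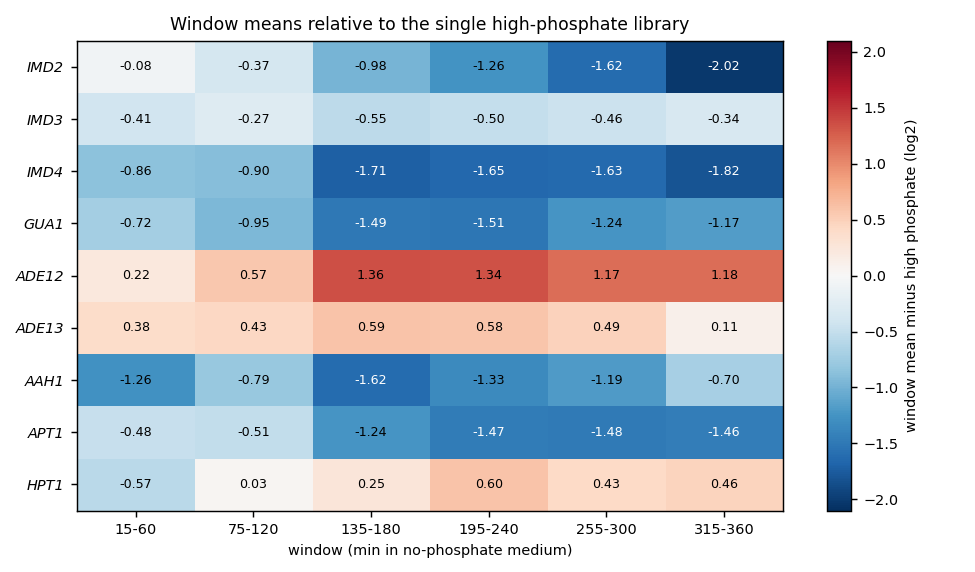
Mean of each window minus the single high-phosphate library, in log2 units, for the 9 genes (rows) and 6 windows (columns); red is higher than high phosphate and blue is lower. The means of IMD2, IMD3, IMD4, GUA1, AAH1 and APT1 are below high phosphate in every window, and those of ADE12 and ADE13 are above it in every window. HPT1 is below it at 15 to 60 min (-0.57) and above it from 135 min on. Closest to high phosphate is HPT1 at 75 to 120 min (0.03, with 2 samples above and 2 below). Next come IMD2 at 15 to 60 min (-0.08, with 2 samples above and 2 below) and ADE13 at 315 to 360 min (0.11, with 3 above and 1 below).

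The first 15 min already set the genes apart. At 15 min ADE13 had 8.12 log2 RPM, against 7.01 in high phosphate, a difference of 1.11 with a counting error of 0.13. AAH1 had 6.94 at 15 min, against 8.12 in high phosphate, a difference of -1.18 with a counting error of 0.14. ADE12 and IMD2 were higher at 15 min by 0.46 and 0.44, and HPT1, APT1, IMD4 and GUA1 differed by -0.61, -0.59, -0.56 and -0.44, with counting errors of 0.09 to 0.14. IMD3 differed by -0.07. Each of these is 1 library against 1, and the counting error leaves out all other sources of spread. By 30 min ADE13 had 7.13, so its high value at 15 min was not kept. Among genes of the route to IMP, ADE17 had 6.79, 8.12 and 6.88 log2 RPM at 0, 15 and 30 min. ADE1, ADE6 and ADE5_7 of that route were also highest at 15 min among these times, as was ADE12, which acts after IMP. ADE2 rose at 15 min and stayed near that level at 30 min. ADE4, ADE8 and ADE16 differed little, with 7.28, 7.58 and 7.71 at 15 min, against 7.37, 7.67 and 7.85 in high phosphate. No counting error was worked out for these genes outside the 9.

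Other genes of purine metabolism, from lists drawn up with earlier results of these data known, were read in the same late against early test. The list of the route to IMP held 8 genes and left out ADE13, which was counted with the 9. The 8 had a median change of 0.53, against 0.33 over all tested genes. Of the 8 genes 6 rose and none fell, against 37.8% of all tested genes higher and 10.0% lower. They were ADE17, which with ADE16 catalyses the last steps to IMP, at 1.44 (SE 0.19), ADE2 at 0.85 (SE 0.17), ADE5_7 at 0.67 (SE 0.15), ADE4, the first enzyme of the route, at 0.57 (SE 0.14), ADE1 at 0.49 (SE 0.16) and ADE16 at 0.48 (SE 0.13), while ADE8 and ADE6 changed by 0.05 and -0.03. After centring, ADE17 and ADE2 alone of the 8 remained higher and ADE6 was lower. ADE13 changed by -0.27 (limma adjusted p = 0.19) and was lower after centring (-0.63, limma adjusted p = 0.00314).

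Of 9 tested genes of salvage and breakdown, 4 rose, near the general share of 37.8%, and 2 fell, against 10.0%. PHM8, a nucleotide phosphatase of the phosphate regulon, rose by 3.17 (SE 0.33) and ISN1, the phosphatase that takes phosphate from IMP, by 1.23 (SE 0.16). AMD1, AMP deaminase, which returns AMP to IMP, rose by 0.79 (SE 0.17) and APT2, a close relative of APT1, by 0.63 (SE 0.19). ADO1, adenosine kinase, fell by 0.57 on the log2 scale (SE 0.14) and HAM1, which hydrolyses non-standard purine triphosphates, by 0.42 (SE 0.17). XPT1, PNP1 and MEU1 did not pass, at -0.36, -0.01 and 0.09, and GUD1, guanine deaminase, had a value in 17 libraries and was not tested. After centring, PHM8 and ISN1 were higher and ADO1, HAM1 and XPT1 lower.

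The kinases, PRS genes, permeases and regulators are read against the same shares. Among the kinases that carry the monophosphates on, GUK1, guanylate kinase, fell by 0.37 (SE 0.13) and YNK1, nucleoside diphosphate kinase, rose by 0.83 (SE 0.15), while ADK1, adenylate kinase, changed by -0.29 (SE 0.13, limma adjusted p = 0.0622) and ADK2 was not tested. Of the 5 PRS genes, which make the phosphoribosyl donor, PRS4 and PRS2 rose by 0.76 and 0.48, PRS1 fell by 0.39 on the log2 scale, and PRS3 and PRS5 did not pass. FCY2, the purine and cytosine permease, rose by 1.20 (SE 0.19); FCY21 and FUN26 did not pass, and FCY22 was not tested. After centring, YNK1, PRS4 and FCY2 were higher and GUK1, PRS1, ADK1 (-0.65, adjusted p = 0.000483) and FCY21 (-0.70, adjusted p = 0.0142) lower, while PRS2 no longer passed (0.13, adjusted p = 0.582). BAS1, the transcription factor of the ADE genes, rose by 0.79 (SE 0.23) but did not pass after centring (0.43, adjusted p = 0.137), and its partner PHO2, a shared factor of the phosphate and purine systems, changed by 0.56 (SE 0.25, limma adjusted p = 0.0633). NAB3 and SEN1, which act in early termination of transcription, did not pass, and NRD1 and SAF1 were not tested.

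The letters TGACTC, the core bound by Bas1 in yeast, were searched on both strands in the 500 bases before each start codon in build R64. They occur before 5 of the 9 genes, against 12.7% of 6000 protein-coding genes. The matches are shown because they stand before 2 genes that rose late against early (ADE12, HPT1), 1 that fell (APT1) and 2 that did not pass (GUA1, ADE13). Each line gives 30 bases on the strand of the gene with the match in capitals, read as GAGTCA where it lies on the other strand. They lie 270 bases before GUA1, 457 and 222 before ADE12, 216 before ADE13, 78 before APT1 and 369 before HPT1, counted from the first letter to the start codon.
GUA1 (chr13:701508-701537): ttcccgacatttTGACTCttttcatgccgt
ADE12 (chr14:233944-233973): ttatggccggtaGAGTCAatagtaatttac
ADE12 (chr14:234179-234208): atccttttcattGAGTCAcagattaacaaa
ADE13 (chr12:844054-844083): cctccgcgagcaGAGTCAaacttcaaacaa
APT1 (chr13:228847-228876): gcatcttgcgtcTGACTCaatatccataaa
HPT1 (chr4:1269687-1269716): tatttcccttccGAGTCActtatttttttt

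No match to TGACTC was found before IMD2, IMD3, IMD4 or AAH1. The letters AAAATTT, the core of an element known from genes of ribosome production, occurred before 8 of the 9 genes, all but ADE12, against 34.1% of genes, and GATGAG, another motif of those genes, before 5 (IMD3, IMD4, GUA1, AAH1 and HPT1), against 28.3%. AGGGG, the stress response element, occurred before 3, GUA1, ADE12 and HPT1, against 34.1%. CACGTG, the site of Pho4, occurred before GUA1 alone, against 6.23%. These are matches of letters, not sites shown to be bound.

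The genes whose courses over the no-phosphate libraries were most like those of 4 of the 9 differed from one to the next. For IMD2 they were UTR2 and URA1, with a Pearson r of 0.91 each, and GND1 with 0.91 (n = 23 libraries). For IMD4 they were YEF3, MIS1 and DED81, with r of 0.88, 0.88 and 0.87 (n = 24). For IMD3 they were RLP7, LHP1 and MAK21, with r of 0.81, 0.78 and 0.77, and for AAH1 they were SSF1, SDA1 and NOG2, with r of 0.83, 0.81 and 0.79 (n = 24). RLP7, MAK21, SSF1, SDA1 and NOG2 are known to act in assembly of the large ribosomal subunit. The 3103 genes searched share the libraries, their depth and the serial order of the samples, so these values describe likeness and nothing more.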

How the data were processed

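Per the labels' protocols, frozen cells were lysed with lyticase, RNA was taken up with a 96-well kit, and cDNA was run on an Illumina HiSeq. The aligner was Bowtie and the build R64, per the submitters' processing notes. The sources used here do not give its version, the counter, the strand or the treatment of reads with several matches. The authors deposited log2 values, 1 column per library. On the linear scale each column adds up to 1000000, which makes them log2 RPM. Of 6701 lines, 51 had no gene name and no value. Low values were whole multiples of a column's smallest value divided by 10 (94.9% to 97.4% of those under 400 reads, within 0.01), so the floor was taken as 10 reads, where counting alone gives a log2 SD of 0.46; such limits cover counting error only. A gene without a value lies under the floor.

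limma 3.58.1 in R 4.3.3 (lmFit, eBayes with trend and robust) fitted 6 window means to the 4535 genes with at least 3 values per window; the high-phosphate library entered no fit. Gene pairs were compared by exact permutation (scipy 1.17.1). The fit was tested on simulated data. Named genes were the 9 genes, the listed purine genes, and the 3 genes of highest correlation with each of IMD2, IMD3, IMD4 and AAH1. The genes, lists and windows were chosen with earlier results of these data known. Alternatives were centring, filters, pseudocounts of 1 and 10 RPM, variance model, library weights, 2 windows only, spline fits and leaving out each library.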

Additional observations from a re-analysis of the deposited data

Results flagged for a closer look

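Within windows of 4 libraries, 53 sets of values were examined for a sample far from the other 3, and 4 were found, where chance gives about 5% of sets. ADE13 at 15 min stood at 8.12 log2 RPM, while the other 3 libraries of its window lay between 7.11 and 7.21. GUA1 at 120 min stood at 7.01, while its window otherwise ran from 8.25 to 8.34, and APT1 at 120 min stood at 7.47, while its window otherwise ran from 8.07 to 8.12. Both come from the shallowest library, with 27 and 37 reads, and both genes were also low in the windows that follow. APT1 at 150 min stood at 6.66 on 80 reads, while its window otherwise ran from 7.37 to 7.42; the lowest value of GUA1, 6.43, came from the same library, which held 790762 reads.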

How the results depend on the processing

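No paired analysis was possible because the labels number no replicates. Between 315 to 360 and 15 to 60 min, IMD2, IMD4, ADE12, APT1 and HPT1 kept their direction and passed under all alternatives that tested them, except IMD2 with a pseudocount of 1 RPM (-1.91, limma adjusted p = 0.146), where its missing value at 120 min is set to 0. That missing value also left IMD2 out of the fit to genes listed in all 24 samples. IMD3 changed sign after centring (-0.29), in the spline fit (-0.0034) and without the 45 min library (range -0.030 to 0.18 without each library in turn), and ADE13 between 75 to 120 and 135 to 180 min after centring (-0.046). In that step IMD2 was 1.07 and 0.33 with pseudocounts of 1 and 10 RPM, again through the value set to 0. Genes past the threshold numbered 1932 to 2050 without each library in turn for late against early (2167 with all), and 923 to 1665 for the step to 135 to 180 min, where library weights gave 2204 and a fit on both windows alone 693, against 1205. For the step to 195 to 240 min the count of 40 became 18 after centring, 5 and 20 with pseudocounts of 1 and 10 RPM, and 4 without trend and robust settings. For the step to 255 to 300 min the count of 7 became 12 with genes listed in all 24 samples, 11 with 1 value per window, 0 with a pseudocount of 1 RPM and 3 without trend and robust settings; for the last step 4 became 0 with a pseudocount of 1 RPM. With the 15 min sample as baseline, 41 and 102 genes counted in the first 2 windows. The cause was not tested. With 1 library left out, 4 against 3 cannot go below an exact p of 0.0571, so no pair could pass; differences ran from -2.25 to -1.62 for IMD2 and IMD3, -1.16 to -0.54 for IMD2 and IMD4, 0.90 to 1.17 for IMD3 and IMD4, 1.07 to 1.32 for ADE12 and ADE13, -2.08 to -1.88 for APT1 and HPT1, and 1.39 to 1.70 for AAH1 and APT1. Depth limits IMD2 most, with 17 to 31 reads in the late window.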
